A study of Mus musculus with 24 samples.

Results

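The difference in gene expression between afferent and efferent nerve fibres of the mouse spinal nerve roots was compared between the day of birth (P0) and 1 week of age (1 W). The 12 arrays labelled P0 and 1 W were taken from a series of 24, with 3 arrays in each of 4 groups. All animals carried the strain label C57BL/6, no transgene or treatment was labelled, and both sexes were used according to the methods. Efferent nerve fibres (EN) came from the ventral roots and afferent nerve fibres (AN) from the dorsal roots of segments L4–L6, and the labels number the arrays of each group 1 to 3. The value studied was the root difference (AN minus EN of the same number, log2) at 1 W minus the root difference at P0, called the interaction below. An interaction of 1 means that AN relative to EN stood 2-fold higher at 1 W than at P0. Of 56605 gene probes, 34273 were tested because some group had them well above background throughout its 3 arrays, and they carried 22597 gene names.

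Each root was taken whole, so an array holds RNA of axons, Schwann cells, vessels, connective tissue and any cell bodies left on the root. In such bulk tissue fewer cells of a type and less RNA per cell cannot be told apart. The methods describe collection of the tissue into 8 tubes, 1 for each group, and the labels do not say that the numbered arrays came from separate animals. How many animals were used at each age is stated in the methods, but not how they were divided among the arrays. The methods also state that each group's data came from 3 independent experiments, without saying how these relate to the tubes. The p-values therefore measure the spread between these samples, and whether it includes that between animals is not settled by the sources used here. The title label of the P0 arrays reads 0h, and the tissue label names segments of the spinal cord, while the description and stage labels read P0.

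Ventral roots carry the axons of motor neurons, whose cell bodies lie in the spinal cord. Dorsal roots carry the central branches of sensory neurons, whose cell bodies lie in the dorsal root ganglion just outside the cord. Nociceptors, the sensory neurons for pain and itch, are marked by neuropeptides such as CGRP and substance P and by tetrodotoxin-resistant sodium channels, whereas motor neurons are marked by the enzymes and transporters of acetylcholine. In both roots Schwann cells wrap large axons in myelin during the first weeks after birth.

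At P0 the EN arrays went against what their label leads one to look for. The summed level of 13 sensory neuropeptide genes was 14.18 to 14.70 (log2 of the summed values) on the P0 EN arrays and 14.17 to 15.56 on the P0 AN arrays, and these ranges overlapped. At 1 W the same sum was 12.11 to 12.59 in EN and 15.44 to 15.65 in AN, which lay apart. Sums over 20 general neuronal genes were 17.86 to 18.35 in P0 EN, 17.71 to 18.97 in P0 AN, 16.93 to 17.25 in 1 W EN and 18.77 to 18.93 in 1 W AN. The P0 EN arrays thus carried sensory neuron transcripts at the level of the AN arrays, and each interaction below rests on them, since none can be formed without them. Of 6 probes for Chat (choline acetyltransferase), the defining motor neuron gene, 1 passed the background filter, and it was well above background on all 12 arrays, in AN as in EN. What the make-up of the P0 EN tissue contributed to the results was not tested.

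The root difference changed between P0 and 1 W at 1652 of 34273 probes (4.82%) by an unadjusted p below 0.05 in limma and a change above 2-fold. The methods name the same limits without saying whether their p was adjusted. AN stood higher relative to EN at 1 W than at P0 at 1431 of them (4.18% of the probes tested) and lower at 221 (0.645%). Higher calls were 86.6% of all calls, and 75.1% when dim probes were not filtered out. At P0 the roots differed at 357 probes (1.04%), 75 higher (0.219%) and 282 lower (0.823%) in AN. At 1 W they differed at 1778 probes (5.19%), 1554 higher (4.53%) and 224 lower (0.654%) in AN. After Benjamini-Hochberg adjustment in limma, 2093 interactions (6.11%) had an adjusted p below 0.05 at any size of change, 1221 higher (3.56%) and 872 lower (2.54%), and 1044 of these (3.05%) also exceeded 2-fold.

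The adjusted count hung on single pairs of arrays, while the count by unadjusted p and fold did so less. Without the P0 pair of replicate 1 or without the 1 W pair of replicate 2, limma gave 0 adjusted calls, with 7912 and 6617 probes at an unadjusted p below 0.05. The adjusted count was 1 without the 1 W pair of replicate 1, 416 without the P0 pair of replicate 3, 408 without the 1 W pair of replicate 3 and 1673 without the P0 pair of replicate 2. Leaving out 1 pair gave 1243 to 1502 higher calls. The lower calls rose from 221 to 382, and the P0 differences from 357 to 625, without the P0 pair of replicate 1.

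Within a root, 3551 probes (10.4%) changed from P0 to 1 W in AN, 1920 up (5.6%) and 1631 down (4.76%). In EN 4626 (13.5%) changed, 2130 up (6.21%) and 2496 down (7.28%). The higher interactions came with a fall in EN in most cases. Of the 1431 probes, 1129 (78.9%) fell in EN from P0 to 1 W, and 989 of them were not called in AN. A rise in AN was called at 223, of which 122 had no call in EN, and 151 were called in neither root. The median level of the 1431 probes was 8.09 in P0 AN, 7.99 in P0 EN and 8.28 in 1 W AN, and 6.06 in 1 W EN. At 1259 of them (88%) no root difference was called at P0 and AN was higher at 1 W. The change in each root is part of the interaction itself, so this count describes where the change lay and is no independent support for it.

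**Figure D1:**
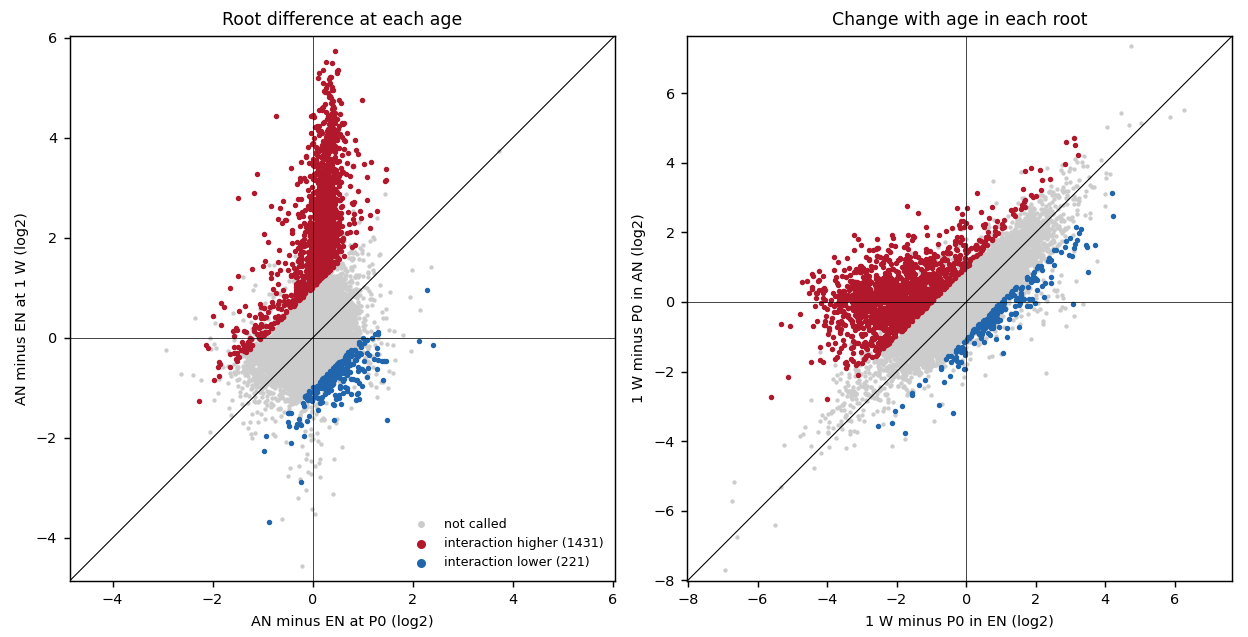
Left, the root difference (AN minus EN, log2) at P0 on the x axis and at 1 W on the y axis for each of the 34273 tested probes; right, the change from P0 to 1 W in EN (x) and in AN (y). Red points are the 1431 probes called higher and blue points the 221 called lower, the diagonal marks equal values, and most red points lie near 0 at P0 and, on the right, at negative EN values.

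The P0 pairs differed among themselves. Over the 1431 probes the median root difference of the P0 pairs was 0.23 for replicate 1, 0.62 for replicate 2 and -0.40 for replicate 3. The corresponding medians at 1 W were 2.45, 2.07 and 1.80. At 1394 of the 1431 probes the 3 P0 pairs and the 3 1 W pairs did not overlap, against 14.4% of all probes in that direction and 33.3% in either. Pairs of both ages shared slide 1 and slide 2, and within these the interaction was above 0 at 1430 and 1431 of the probes. The same pairs chose the probes, so the medians, the signs within slides and the count of pairs that did not overlap describe the choice and lend it no support. Of the 1431 probes, 339 were above background on no 1 W EN array and have only a bound there, and 809 were above background on all 12 arrays.

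The 11 largest rises among genes measured in all 4 groups were Tlx2, Mrgprd, Prdm12, Avil, Calca, Isl2, Tac1, Tmem45b, Prph, Scn10a and Cplx1. They were chosen by the size of the interaction, which ran from 4.43 to 5.10, so their values describe the top of the list and give it no further support. In each of the 11 the 1 W EN array of replicate 3 had the highest level of the 3 1 W EN arrays, and the P0 pair of replicate 3 had a root difference below 0.

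Avil, an actin-binding protein of peripheral sensory neurons (probe at chr10:126457976-126458035, mm9), was 12.93, 14.27 and 12.62 on the P0 AN arrays and 12.37, 12.83 and 13.18 on the P0 EN arrays. At 1 W it was 13.49, 13.88 and 13.71 in AN and 7.55, 8.24 and 9.28 in EN. The roots overlapped at P0 and lay more than 4 log2 units apart at 1 W, where EN had dropped and AN had stayed in its range. The root difference was 0.48 ± 1.00 (SD, n = 3) at P0 and 5.34 ± 0.80 at 1 W, and the interaction was 4.85 (SE 0.61, adjusted p = 0.0267 in limma). The fitted change in EN was a 21.6-fold fall.

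Calca, which encodes the neuropeptide CGRP (chr7:121775204-121775263, mm9), was 13.25, 14.86 and 13.13 in P0 AN and 12.95, 12.97 and 13.77 in P0 EN. Its levels at 1 W were 14.76, 14.92 and 15.05 in AN and 9.06, 9.30 and 10.28 in EN. The roots moved apart from both sides, with AN up by 1.16 and EN down by 3.68 on the log2 scale (unadjusted p = 0.0282 and 8.34e-06 in limma). The interaction was 4.85 (SE 0.65, adjusted p = 0.0267).

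Prph, the neurofilament protein peripherin (chr15:98889042-98889101, mm9), was 13.74, 14.92 and 13.31 in P0 AN and 13.14, 13.71 and 13.94 in P0 EN, then 14.19, 14.64 and 14.19 in 1 W AN and 8.57, 9.34 and 10.21 in 1 W EN. Here AN did not change by the test (0.35, unadjusted p = 0.461 in limma) and EN fell by 4.22 on the log2 scale. Tac1, the precursor of substance P, was 11.90, 12.83 and 11.14 in P0 AN and 11.29, 11.38 and 12.14 in P0 EN, against 12.71, 13.23 and 12.71 in 1 W AN and 6.73, 7.73 and 8.91 in 1 W EN. Its interaction was 4.74 (SE 0.79, adjusted p = 0.031), with the widest SE among these 11 genes.

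Scn10a, the nociceptor sodium channel Nav1.8, behaved as Prph did. It was 12.50, 13.72 and 11.98 in P0 AN and 12.09, 12.36 and 12.53 in P0 EN, then 12.74, 13.15 and 13.07 in 1 W AN and 7.16, 7.80 and 9.16 in 1 W EN. No change was called in AN between the ages, and EN fell by 4.29 on the log2 scale.

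Mrgprd, a receptor of nonpeptidergic nociceptors, and Tmem45b, a membrane protein gene, also rose in AN. Mrgprd was 8.37, 10.15 and 8.25 in P0 AN and 10.37, 10.94 and 10.85 in 1 W AN, and it went from 8.18, 9.06 and 8.93 to 4.35, 5.76 and 6.75 in EN. Its AN arrays did not overlap between the ages, with a rise of 1.80 (unadjusted p = 0.0145 in limma), and its EN fall was 3.10 in size. Tmem45b rose in AN by 1.62 (unadjusted p = 0.0041 in limma) and had an interaction of 4.64 (SE 0.60, adjusted p = 0.0267).

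The transcription factor genes among the 11 were Tlx2, a homeobox gene of neural crest derived neurons, Prdm12, which directs nociceptor fate, and Isl2, a LIM homeobox gene of sensory and motor neurons. Tlx2 was 9.38, 10.92 and 9.15 in P0 AN, 9.13, 9.96 and 10.06 in P0 EN, 10.98, 11.32 and 11.05 in 1 W AN, and 4.78, 5.74 and 7.23 in 1 W EN. Prdm12 had the interaction 4.87 (SE 0.72, adjusted p = 0.0276), and Isl2 4.77 (SE 0.61, adjusted p = 0.0267). Isl2 was 11.37, 13.09 and 11.24 in P0 AN, 11.27, 11.63 and 11.94 in P0 EN, 11.83, 12.01 and 12.60 in 1 W AN, and 6.38, 6.54 and 8.35 in 1 W EN. All 3 fell in EN, and no AN change was called for any of them. Cplx1, a complexin that binds SNARE complexes at nerve terminals, had an interaction of 4.43 (SE 0.62, adjusted p = 0.0267).

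**Figure D2:**
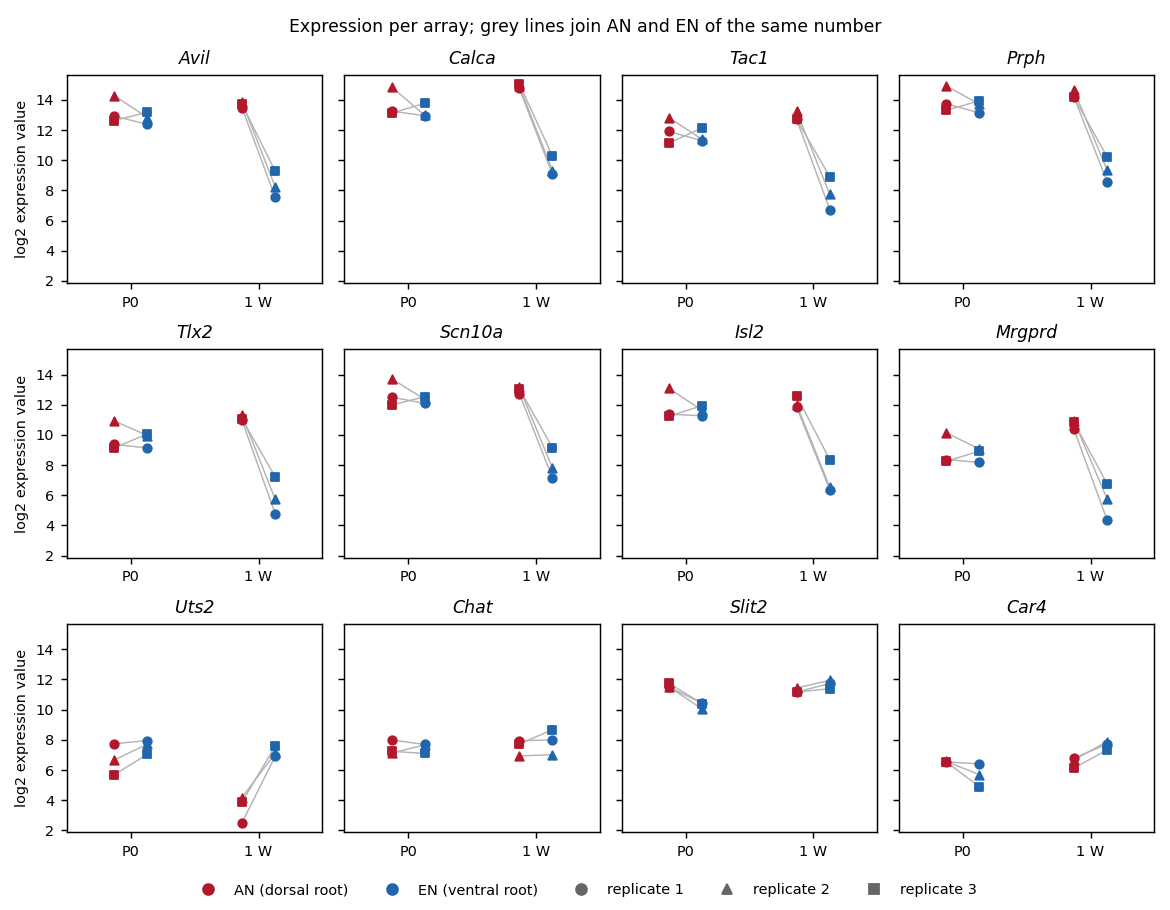
Log2 expression value on each of the 12 arrays (y) at P0 and 1 W (x) for 12 genes, with AN in red and EN in blue, marker shape for the replicate number and a grey line joining the AN and EN array of a number. The upper 8 genes overlap between roots at P0 and separate at 1 W through low EN values, whereas Chat stays level. Slit2 and Car4 turn from higher in AN at P0 to higher in EN at 1 W. The 1 W root difference of Slit2 (-0.43) and the P0 root difference of Car4 (0.89) were under the 2-fold limit and not called.

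Promoter sequence is shown for 3 of these rises with a known place in sensory neurons, and for Slit2, the fall described below, since the genes moved together or against each other. The sequences are RefSeq's for GRCm38.p6, 5′ to 3′ on the gene's strand, and capitals mark the 1 motif found in each. Calca lies at chr7:114636308-114636607 (minus strand), Prph at chr15:99054924-99055223, Isl2 at chr9:55540899-55541198 and Slit2 at chr5:47982905-47983204 (plus strand).
Calca: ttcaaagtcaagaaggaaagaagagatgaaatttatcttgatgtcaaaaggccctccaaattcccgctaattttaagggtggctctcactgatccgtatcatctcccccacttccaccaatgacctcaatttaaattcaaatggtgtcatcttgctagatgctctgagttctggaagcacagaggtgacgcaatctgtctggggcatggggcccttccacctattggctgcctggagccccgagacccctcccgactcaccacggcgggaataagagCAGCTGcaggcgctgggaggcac
Prph: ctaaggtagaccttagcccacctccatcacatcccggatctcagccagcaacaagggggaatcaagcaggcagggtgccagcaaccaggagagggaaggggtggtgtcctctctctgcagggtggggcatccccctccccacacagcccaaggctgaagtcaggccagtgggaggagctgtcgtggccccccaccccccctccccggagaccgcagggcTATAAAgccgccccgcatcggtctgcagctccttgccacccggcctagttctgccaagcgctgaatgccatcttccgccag
Isl2: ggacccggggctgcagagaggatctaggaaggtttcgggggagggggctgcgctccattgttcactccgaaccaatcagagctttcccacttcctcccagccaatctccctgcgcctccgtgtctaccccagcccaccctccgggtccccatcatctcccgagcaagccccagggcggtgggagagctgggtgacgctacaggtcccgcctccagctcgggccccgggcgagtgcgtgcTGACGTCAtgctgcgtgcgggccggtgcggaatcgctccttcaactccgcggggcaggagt
Slit2: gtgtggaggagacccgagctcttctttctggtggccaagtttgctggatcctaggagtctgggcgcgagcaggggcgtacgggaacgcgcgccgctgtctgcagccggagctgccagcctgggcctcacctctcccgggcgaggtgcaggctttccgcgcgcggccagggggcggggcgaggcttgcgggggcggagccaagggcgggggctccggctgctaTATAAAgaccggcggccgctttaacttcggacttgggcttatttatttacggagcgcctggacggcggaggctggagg

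In capitals are CAGCTG (an E-box) in Calca, TGACGTCA (the cAMP response element) in Isl2, and the core promoter motif TATAAA in Prph and Slit2. Both strands were searched, and CAGCTG and TGACGTCA read the same on both. Of 32851 mouse promoters of the same length, 13.62% hold TATAAA, 1.79% TGACGTCA and 16.3% CAGCTG. Among the 18 rising genes named by rule, 14 had a promoter in the table, of which 1 held TATAAA (Prph), 2 TGACGTCA (Isl2 and Kctd8) and 5 CAGCTG (Calca, Cplx1, Isl1, Kctd8 and Trappc3l). Among the 18 falling genes, 12 had a promoter, of which 6 held TATAAA (Aldh1a7, Car4, Cd177, Slco1c1, Slit2 and Uts2), 1 CAGCTG (Fcgbp) and none TGACGTCA. These are matches of letters in a short window and say nothing of binding.

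A further 6 large rises were in genes that were dim in at least 1 group, in each case 1 W EN: Trappc3l, Kctd8 (a partner subunit of GABAB receptors), Fam43b, Isl1 (a LIM homeobox gene of sensory and motor neurons), Cpne4 (a calcium-binding copine) and Mrgpra3 (an itch receptor). Their fitted interactions were 4.47 to 5.15. Trappc3l, Kctd8 and Mrgpra3 were not well above background on any 1 W EN array, so at 1 W AN was at least 9.89-fold, 12.4-fold and 8.42-fold higher. The bound compares the AN mean with the mean over EN arrays of the lowest signal that was well above background there, or the probe's own signal if higher. Isl1 was 8.33, 8.71 and 8.93 in 1 W AN and 2.73, 3.09 and 5.37 in 1 W EN, of which 1 EN array was above background, and at P0 it was 9.01, 10.20 and 8.71 in AN and 8.52, 9.13 and 9.51 in EN.

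**Figure D3:**
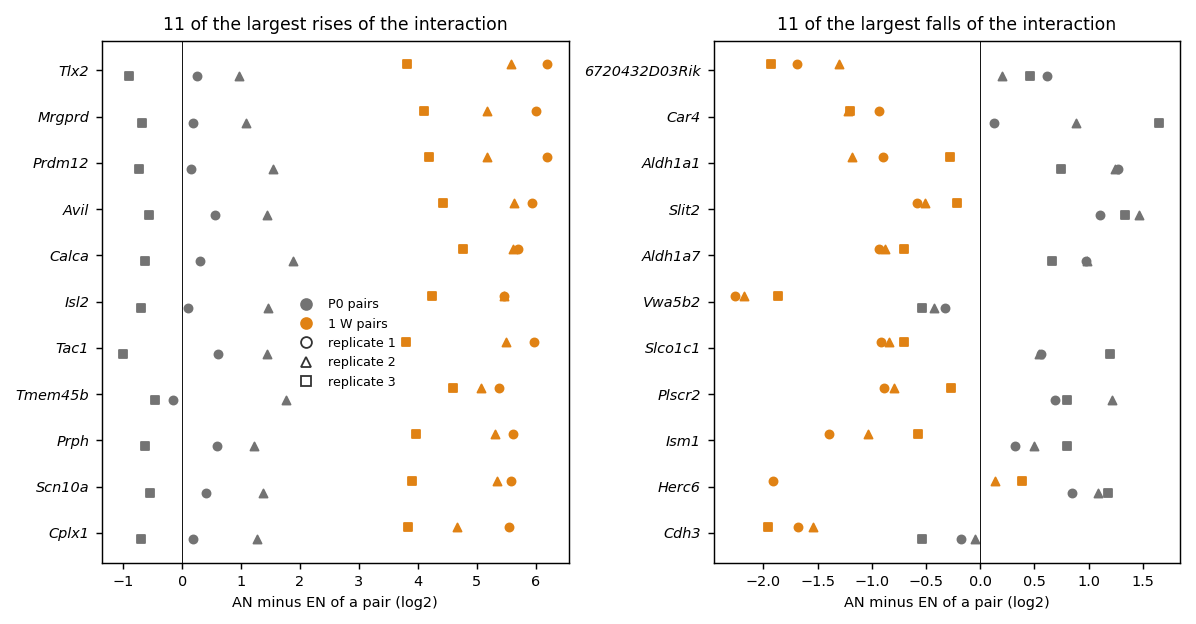
Root difference of each AN and EN pair (AN minus EN, log2, x) for 11 of the largest rises (left) and 11 of the largest falls (right) of the interaction among genes measured in all groups, with P0 pairs in grey, 1 W pairs in orange and marker shape for the replicate number. The P0 and 1 W pairs do not overlap in any gene shown, as the naming rule required, and the 1 W pairs of Herc6 spread from -1.91 to 0.39.

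The falls of the interaction were smaller and of more mixed origin. Of the 221 probes, 97 rose in EN, 47 fell in AN, and 79 were called in neither root. The median root difference went from 0.49 at P0 to -0.79 at 1 W, and at 216 the pairs did not overlap, against 18.9% of all probes in that direction. The 12 largest falls among genes measured in all groups ran from -1.47 to -2.07, and 11 of them are named. They were 6720432D03Rik, Car4 (a membrane-bound carbonic anhydrase), Aldh1a1 (a retinaldehyde dehydrogenase) and its close relative Aldh1a7, Slit2, Vwa5b2, Slco1c1 (a thyroid hormone transporter of brain vessels), Plscr2, Ism1 (a secreted protein), Herc6 and Cdh3 (P-cadherin).

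Slit2, a secreted guidance protein that repels growing axons through Robo receptors (chr5:48696502-48696561, mm9), turned round between the ages. It was 11.52, 11.51 and 11.75 in P0 AN and 10.41, 10.05 and 10.41 in P0 EN, so AN was above EN without overlap. At 1 W it was 11.16, 11.44 and 11.17 in AN and 11.74, 11.94 and 11.38 in EN, with each EN array above its AN partner. The 1 W root difference of -0.43 was under the 2-fold limit and not called. EN rose by 1.40 (unadjusted p = 5.72e-06 in limma), the AN change of -0.34 was not called, and the interaction was -1.74 (SE 0.15, adjusted p = 0.022).

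Aldh1a1 and Aldh1a7 shared this pattern, though their probes may share signal because the genes are near copies. Aldh1a1 was 10.98, 10.71 and 10.55 in P0 AN, 9.71, 9.46 and 9.81 in P0 EN, 10.22, 10.68 and 10.95 in 1 W AN, and 11.11, 11.87 and 11.23 in 1 W EN. The interaction was -1.87 (SE 0.27, adjusted p = 0.0272) for Aldh1a1 and -1.71 (SE 0.13, adjusted p = 0.0192) for Aldh1a7. Both rose in EN, and neither was called in AN.

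Car4 was 6.54, 6.57 and 6.54 in P0 AN and 6.41, 5.69 and 4.89 in P0 EN, then 6.79, 6.67 and 6.13 in 1 W AN and 7.72, 7.89 and 7.33 in 1 W EN. AN was near constant, and EN rose by 1.98 (unadjusted p = 9.92e-05 in limma). Cdh3 and 6720432D03Rik rose in both roots and more in EN, by 3.14 against 1.67 and by 3.71 against 1.64. Plscr2 stood apart, with a fall of 1.71 on the log2 scale in AN and no call in EN.

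Some of the falls were weak. Herc6 (-1.50, SE 0.60, adjusted p = 0.191) rested on the 1 W pair of replicate 1, without which its value was -0.77. A second Vwa5b2 probe moved the other way without a call. Among the 6 largest falls of genes dim in a group, Cd177 (-1.93) had an adjusted p of 0.197 and Adra1d (-3.13) one of 0.0833, and the others were Uts2, Sds, Lemd1 and Fcgbp. Sds (serine dehydratase) and Fcgbp were above background on no P0 EN array and on all 3 at 1 W, and Lemd1 was above background in P0 AN alone.

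Uts2, the peptide urotensin II of spinal motor neurons (chr4:150375854-150375913, mm9), was lost in AN and not in EN. It was 7.74, 6.66 and 5.69 in P0 AN and 7.95, 7.72 and 7.04 in P0 EN. At 1 W it was 2.49, 4.17 and 3.87 in AN, with 1 array above background, and 6.91, 7.11 and 7.57 in EN, with all 3. The change was -3.19 in AN and -0.38 in EN (unadjusted p = 0.000117 and 0.498 in limma). The interaction was -2.81 (SE 0.45, adjusted p = 0.0294).

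Beyond the largest changes, lists of genes were followed by role, with the brightest probe of each gene. Other probes of 33 list genes differed from it or from each other in call. Over all 22597 genes tested in this way 1016 were called higher and 139 lower, and the median interaction was -0.02. Sensory transcription factors with advillin, general neuronal, nociceptor, SNARE and neuropeptide genes had the highest medians in the plot of list members. The astrocyte median (1.20) came next. Motor neuron (0.04), ionotropic glutamate receptor (0.09) and spinal cord interneuron genes (0.33) lay far lower. Endothelial, meningeal and macrophage genes stood at the low end.

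**Figure D4:**
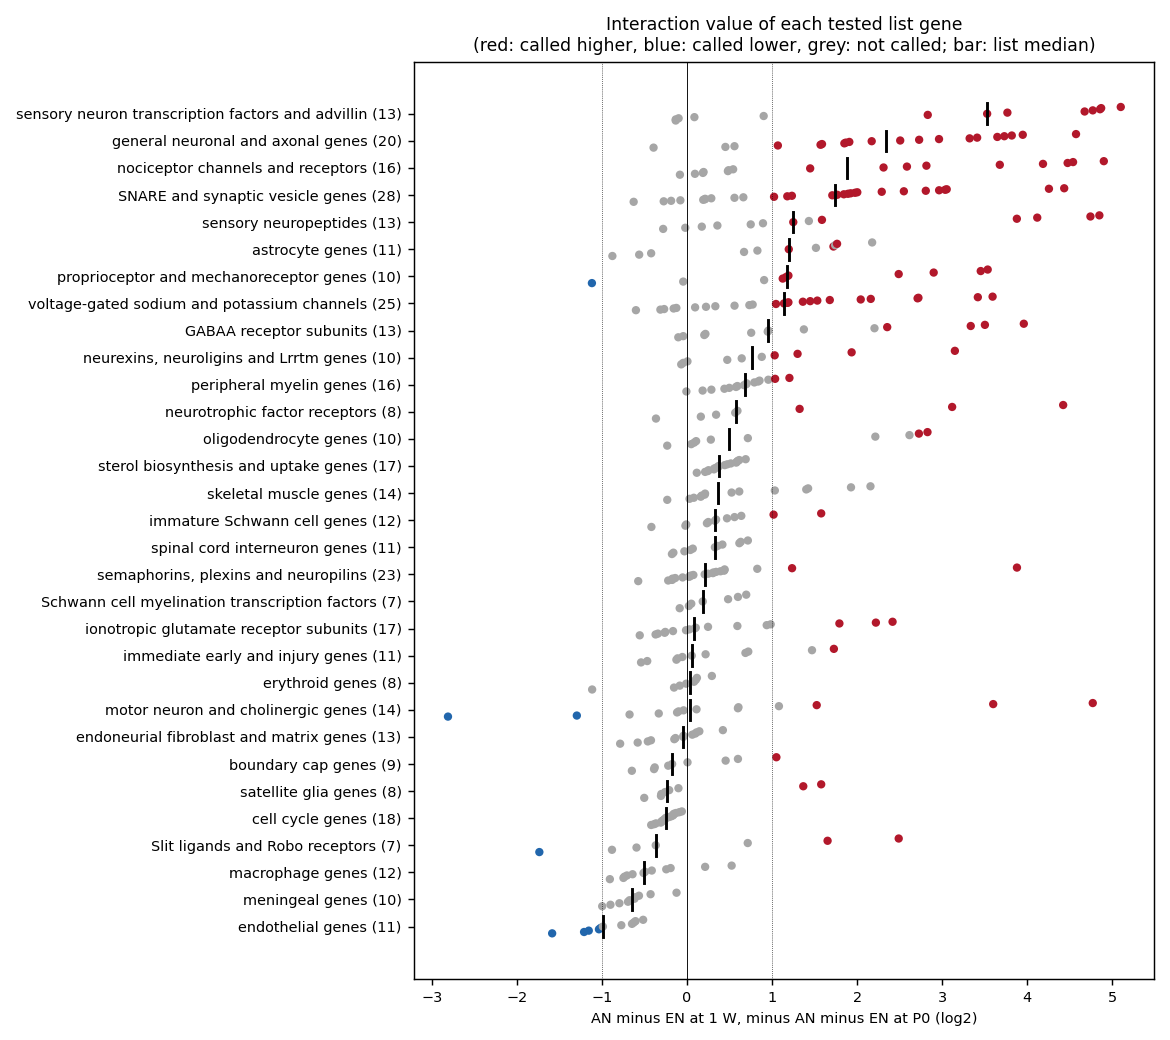
Interaction (log2, x) of each tested gene of 31 lists (y, number of genes tested in brackets), red where called higher, blue where called lower and grey where not called, with a black bar at the list median and dotted lines at a 2-fold change. Medians run from 3.53 for sensory neuron transcription factors and advillin down to -0.99 for endothelial genes.

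Sensory neuron genes were called higher in every list of them, each list in part. Of 13 sensory neuron transcription factors with advillin, 8 were called higher and none lower, with a median interaction of 3.53, and Shox2 (3.53), Pou4f2 (2.83) and Pou4f3 joined Tlx2, Prdm12, Isl1, Isl2 and Avil. Pou4f3 was not above background on any 1 W EN array, where AN was at least 3.55-fold higher. Etv1 and Runx3, factors of proprioceptors, had 0.09 and -0.10, and Prrxl1, the array's name for Drgx, had -0.13. Pou4f1 was -0.13 on the brightest probe and 4.37 on another, and a second Runx3 probe had 1.90, so the probes of both disagreed.

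Of 13 neuropeptide genes 6 were called higher, namely Calca, Tac1, Calcb (4.12, a CGRP paralogue), Adcyap1 (3.88, the peptide PACAP), Nmb (1.59, neuromedin B) and Tac2 (1.25). The list median was 1.25. Npy was higher in AN at both ages, by 1.45 at P0 and 2.88 at 1 W, and its interaction of 1.43 missed the threshold (unadjusted p = 0.0516 in limma).

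Of 16 nociceptor channels and receptors 9 were called higher, with a median of 1.88. Beside those above they included Scn11a (4.18, the sodium channel Nav1.9), Asic3 (3.68, an acid-sensing channel), Trpv1 (2.81, the capsaicin receptor) and Trpa1 (1.45, an irritant receptor). Trpa1 rose in AN by 2.33, and its EN change was 0.89. The purinergic receptor P2rx3 (-0.08) and the cold receptor Trpm8 (0.19) were not called on their brightest probes, though 1 of 3 P2rx3 probes was called higher (1.12).

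Of 8 neurotrophic factor receptors 3 were called higher, among them Ret (3.12, the GDNF family receptor kinase) and Gfra3 (1.32, the artemin co-receptor). Ntrk3 (0.57, the NT-3 receptor TrkC) and Gfra1 (-0.37) were not. Of 10 genes of proprioceptors and mechanoreceptors 7 were called higher and 1 lower (Heg1, -1.12). Among the higher were Slc17a6 (3.53, a vesicular glutamate transporter), Calb1 (3.45) and Pvalb (2.49, parvalbumin), and Piezo2, the touch channel, had 1.12. Of 4 tested Piezo2 probes only 1 was called, and the lowest had -0.40.

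Motor neuron and cholinergic genes did not move together. Of 14 genes 3 were called higher (Ache 3.60, Isl2, and Esrrg 1.52) and 2 lower (Uts2, and Mmp9 -1.30), with a median of 0.04. Chat was 7.99, 7.13 and 7.24 in P0 AN, 7.69, 7.66 and 7.10 in P0 EN, 7.94, 6.93 and 7.72 in 1 W AN, and 8.00, 7.02 and 8.67 in 1 W EN. All 4 groups overlapped, and its interaction of -0.33 had an unadjusted p of 0.346 in limma. Ache, acetylcholinesterase, fell in EN from 7.62, 8.05 and 8.20 to 3.06, 4.79 and 5.62, as the sensory genes did, and Slc18a3, the vesicular acetylcholine transporter, fell in both roots by 1.44 and 1.55 on the log2 scale.

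General neuronal genes followed the sensory lists. Of 20 genes 17 were called higher, with a median of 2.34, an EN median of -2.76 and an AN median of 0.24 between the ages. Stmn2 (stathmin 2 of growing axons) was 14.78, 16.36 and 14.87 in P0 AN, 14.42, 15.18 and 15.30 in P0 EN, 15.12, 15.22 and 15.83 in 1 W AN, and 10.49, 10.98 and 12.65 in 1 W EN. The neurofilament genes Nefl (3.95), Nefm (3.82) and Nefh (1.57) were all called higher, but Nefh differed in kind. It was lower in AN in each P0 pair (-1.14, -0.40 and -1.38) and higher at 1 W (1.01, 0.78 and 0.01). Among the genes not called were Snap25 and Sncg, and Snap25 was 0.56 on the brightest probe and 3.55 on another.

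Genes of transmitter release and excitability were called higher in part. Of 28 SNARE and synaptic vesicle genes 18 were called higher (median 1.74), among them Rab3c (4.25), Syn2 (3.03), Syt1 (2.96, a calcium sensor of release), Syn1 (2.81, synapsin) and Vamp1. Vamp1 rose in AN by 1.46 while its EN change of -0.55 was not called. Of 25 voltage-gated sodium and potassium channels 14 were called higher (median 1.14), among them Scn4b (3.59) and Scn1a (2.71). Kcna2, a potassium channel of the juxtaparanode beside the node of Ranvier, differed from these, with a rise of 1.64 in AN and a change of 0.50 in EN (interaction 1.14).

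Among receptors and adhesion proteins of synapses the calls on the brightest probes fell on a few members. Of 13 GABAA receptor subunits 4 were called higher, among them Gabrg1 (3.50), and the median was 0.96. Gabrb2 was higher in AN at both ages, by 1.32 at 1 W, and fell in both roots, with an interaction of 0.22. Of 17 ionotropic glutamate receptor subunits 3 were called higher, Grik4 (2.42), Grik3 (2.22) and Grin3a (1.79), and the median was 0.09. Other probes of Grik1 (3 of 4, up to 3.73) and Gria4 (2 of 3, up to 1.14) were called higher, so the probes of both disagreed. Of 10 neurexin, neuroligin and Lrrtm genes 4 were called higher, among them Nrxn3 (1.93), Lrrtm2 (1.30) and Nrxn2 (1.03, at the 2-fold limit), whereas Nlgn1 (0.47) and Nlgn3 (-0.04) were not. Of 3 tested Nrxn3 probes only 1 was called, and the lowest had -0.17.

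Guidance genes split by molecule. Of 7 Slit and Robo genes Slit1 (1.65) and the receptor Robo2 (2.49) were called higher and Slit2 lower, while Slit3 (-0.59) and Robo1 (-0.37) were not called. Robo2 was 9.00, 9.40 and 8.78 in P0 AN, 8.83, 8.91 and 8.89 in P0 EN, 8.68, 8.87 and 9.14 in 1 W AN, and 5.32, 6.19 and 7.16 in 1 W EN. It took the course of the neuronal genes, with EN falling by 2.65 on the log2 scale. Of 23 semaphorins, plexins and neuropilins Sema4f (3.88) and the receptor Plxna4 (1.23) were called higher on the brightest probe. The brightest probe of Nrp1 was not called, and 1 of its 7 probes was called lower (-1.92).

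Peripheral myelin genes changed in another way, by a P0 difference that narrowed. Of 16 genes 8 were called lower in AN at P0, and 1 (Pmp2) at 1 W, where the median was -0.20. In AN 13 of the 16 rose and in EN 11, and the median change was 1.86 in AN and 1.16 in EN. Gldn (gliomedin of the node of Ranvier) was 11.95, 10.81 and 11.70 in P0 AN and 13.18, 12.83 and 12.97 in P0 EN, then 14.30, 14.40 and 14.17 in 1 W AN and 14.59, 14.66 and 14.52 in 1 W EN. AN started below EN and had nearly reached it at 1 W, with an interaction of 1.20 (SE 0.22, adjusted p = 0.0375). Ncmap (1.04) was the other called gene, and 15 of 16 interactions were above 0.

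Drp2, a protein of the myelin sheath, came close to the 2-fold limit with 0.96 (SE 0.12, adjusted p = 0.0267), and Mbp had 0.59. The 17 genes of sterol synthesis and uptake, which supply myelin with cholesterol, all had interactions above 0 (0.11 to 0.69). None was called and 7 had an adjusted p below 0.05, while the median root difference went from -0.84 to -0.44.

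**Figure D5:**
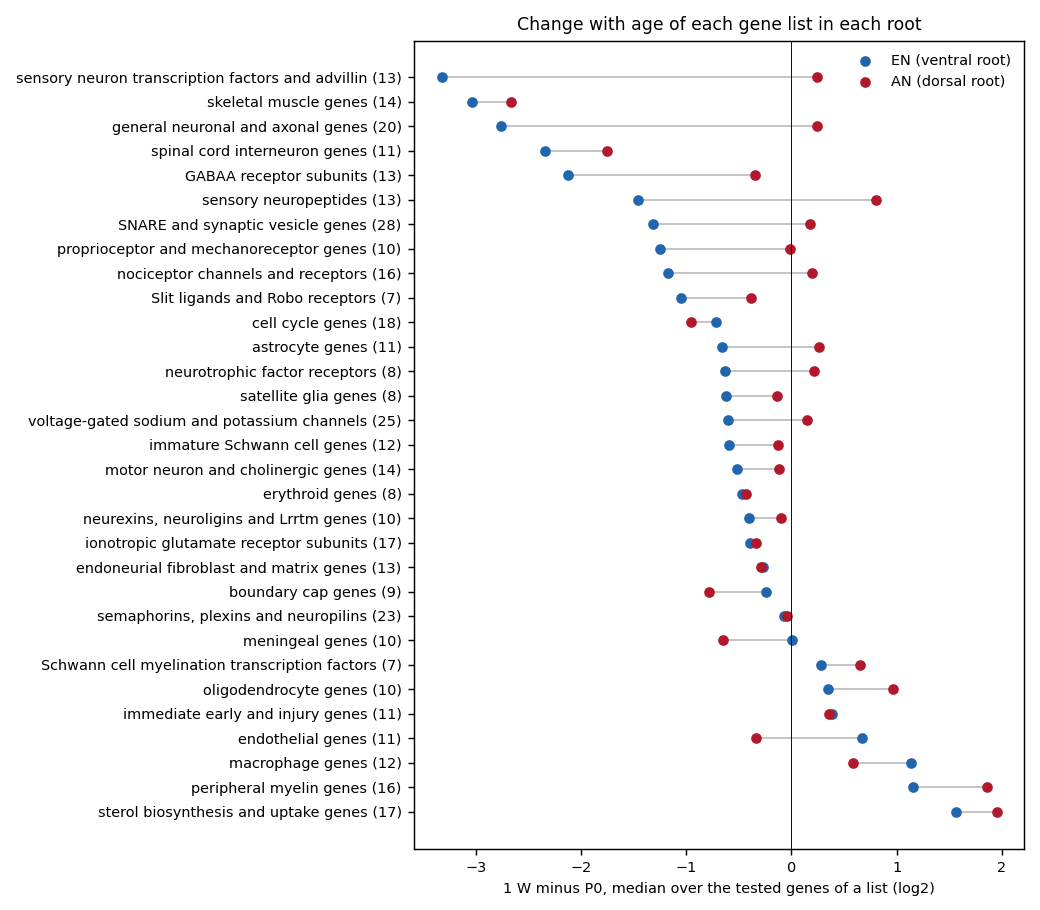
Median change from P0 to 1 W (log2, x) over the tested genes of each list (y) in EN (blue) and in AN (red). Medians of the sensory transcription factor and general neuronal lists were far below 0 in EN and near 0 in AN, that of sensory neuropeptides was -1.46 in EN and 0.81 in AN, peripheral myelin and sterol genes rose in both roots and more in AN, and skeletal muscle and spinal cord interneuron genes fell in both.

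Other glial lists held few calls. Of 7 Schwann cell myelination factors none was called, and Egr2 had 0.60. Of 12 immature Schwann cell genes 2 were called, L1cam (1.02) and Fabp7 (1.58), and of 9 boundary cap genes 1, Hey2 (1.05). Prss56, the boundary cap marker at the root exit points, was 3.73 higher in AN at P0 on the log2 scale and at least 4.01-fold higher at 1 W, where no EN array was above background, and it fell in both roots. Of 8 satellite glia genes Kcnj10 (1.37) and Fabp7 were called, and Kcnj10, a potassium channel of satellite glia, was lower in AN at P0 by -0.68 and higher at 1 W by 0.68.

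Genes of central glia were called in part. Of 11 astrocyte genes 3 were called higher (Slc1a2 1.76, Fgfr3 1.20, and Slc6a11, which was not above background on any 1 W EN array), and of 10 oligodendrocyte genes 2, Olig2 (2.73) and Gpr17 (2.83). The median root difference of the astrocyte genes was 2.35 in the 1 W pair of replicate 1 and 0.73 and 0.81 in the others. No spinal cord interneuron gene of 11 was called, and 8 of them fell in each root, with summed levels of 12.30 to 12.77 in P0 AN, 12.16 to 12.70 in P0 EN, 11.40 to 11.85 in 1 W AN and 11.25 to 11.81 in 1 W EN. The share of central tissue that clung to each root was not tested.

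Endothelial genes were the list with the most lower calls. All 11 had interactions below 0, 5 were called lower, and the median was -0.99. The called genes were Slco1c1 (-1.59), Tek (-1.21, the angiopoietin receptor), Cldn5 (-1.16, the tight junction protein claudin 5), Tie1 (-1.04) and Abcb1a (-1.02, an efflux pump). Cldn5 was 12.62, 14.17 and 14.08 in P0 AN, 12.45, 13.50 and 12.76 in P0 EN, 12.95, 12.94 and 13.41 in 1 W AN, and 13.12, 13.61 and 13.89 in 1 W EN. AN was the higher of each pair at P0 and the lower at 1 W. At neither age was a root difference called for any of the 11 genes (medians 0.46 and -0.42). Kdr, the VEGF receptor, showed the same turn in each pair, 0.36, 0.68 and 0.97 at P0 and -0.34, -0.14 and -0.47 at 1 W, and at -0.99 (adjusted p = 0.0359) it just missed the 2-fold limit.

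Macrophage and meningeal genes had medians below 0 and no call on the brightest probe, though 1 of 4 probes of Ptprc, a macrophage list member, was called lower (-1.11). Of 12 macrophage genes 10 were below 0, with a median of -0.50, and 4 had an adjusted p below 0.05. Csf1r, the receptor that macrophages need to survive, had -0.71 (SE 0.12, adjusted p = 0.031), and C1qa, a complement subunit, -0.75 (SE 0.10, adjusted p = 0.0267). Both rose in EN, by 1.38 and 1.42, while their change of 0.67 in AN was under the 2-fold limit. All 10 meningeal genes were below 0, with a median of -0.65. In 13 endoneurial fibroblast and matrix genes the median was -0.04, with no call.

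The remaining lists held 1 call among them. The 18 cell cycle genes, the 14 skeletal muscle genes and the 8 erythroid genes held none, and of 11 immediate early and injury genes Fosb (1.73) was called. The cell cycle genes had a median root difference of 0.67 at P0 and 0.48 at 1 W, and all 18 interactions were below 0. Skeletal muscle genes had summed levels of 16.04 to 17.34 in P0 AN, 17.22 to 18.61 in P0 EN, 12.80 to 14.40 in 1 W AN and 14.24 to 15.12 in 1 W EN, and 11 of the 14 fell in each root. Whether muscle was carried with the P0 roots, and whether it moved other genes, was not tested.

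The 21 genes that the study names from these arrays were chosen on the same samples, so their counts are no independent evidence. Of them 5 were called higher, among them Nrxn2 and Nrxn3, and 1 lower (Slit2). Ncam1, an adhesion protein of immature Schwann cells and axons, was higher in AN at both ages, by 0.64 and 0.89, and fell in both roots, with an interaction of 0.25. Unc13c (-0.63), Gabra2 (1.37), Gabra3 (0.75), Gabra4 (0.96), Gabra5 (-0.04), Gabrb1 (2.20, unadjusted p = 0.1 in limma) and Gabrg3 (0.95) were not called on their brightest probes. Other probes of Gabra2 (3 of 4, up to 3.76), Gabra4 (1.79) and Gabra5 (1.85) were called higher, so the probes of these genes disagreed.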

How the data were processed

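The authors hybridised Cyanine-3 labelled RNA to 1-colour Agilent mouse arrays and deposited scanner files with the intensity of each spot (Agilent Feature Extraction 10.7.1.1) and a table of log2 values, made by quantile normalization in GeneSpring according to the methods. The deposited log2 table gave the values, and the scanner files gave gene names, mm9 probe positions and the marks for spots well above background. Median signal was 88.3 to 190.6 over a background of 23 to 46, 55.1% to 71.7% of gene probes were above background, and no spot was saturated, so signal over background and the number of arrays limit the precision.

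Gene probes that passed the background mark throughout some group's 3 arrays entered the test, made with limma 3.58.1 in R 4.3.3, with the AN and EN pair as a block (4 residual degrees of freedom). AN and EN arrays of a number shared their deviations from the group means (r = 0.40 to 0.66, against at most 0.08 with another number), so the numbers were taken to pair samples. Such deviations cancel out within a group, which by itself lowers the r with other numbers. Both arrays of a number also shared a slide and a scan day. At 1 W each number had its own slide, so there shared tissue and a shared slide cannot be told apart. Changes between ages within a root came from the group means without pairs (8 residual degrees of freedom). The sources do not say whether the methods' p was adjusted, so both are given. Self-tests on simulated data were run beforehand. Summaries and figures used Python 3.11.15 with numpy 2.4.6, pandas 2.3.3 and matplotlib 3.10.9.

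Genes with a symbol were named as the 12 largest rises and falls among called genes above background on at least 2 arrays of every group with pair differences that did not overlap, the 6 largest of each among dimmer genes, the genes the study names, and the called members of highest level and the defining markers of each list. Some genes that this rule selects are not reported here. Lists use the brightest tested probe of a gene. Of 186 list genes with several tested probes, 33 had probes that differed in call and 0 had opposite calls. The comparison, the members and the lists were chosen with earlier results of these data known. Alternatives covered the block, array weights, scaling, background correction, filters, slide, scan day and leaving out each pair.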

Additional observations from a re-analysis of the deposited data

Results flagged for a closer look

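The root difference itself differed between P0 and 1 W, by the test of the interaction in limma, at 1431 probes called higher and 221 called lower.

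The genes Cmtm2b and Adra1d were called in opposite directions at the ages by unadjusted p and fold, both outside the larger lists. Cmtm2b, a chemokine-like transmembrane gene, was 5.67, 3.01 and 4.64 in P0 AN, 6.36, 5.92 and 6.00 in P0 EN, 6.95, 7.13 and 6.86 in 1 W AN, and 5.95, 6.29 and 5.70 in 1 W EN. AN was lower in each P0 pair and higher in each 1 W pair, with an interaction of 2.65 (SE 0.54, adjusted p = 0.0477 in limma), 1.69 within slide 1 and 3.29 within slide 2. Of its P0 AN arrays 1 was well above background. The root difference was -1.65 at P0 (adjusted p = 0.0649 in limma). At 1 W it was 1.0005 (adjusted p = 0.118 in limma), at the 2-fold limit.

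Adra1d, an adrenergic receptor, was higher in AN at P0 and lower at 1 W, with an interaction of -3.13 (SE 0.83, adjusted p = 0.0833 in limma). Its root difference was 1.49 at P0 (unadjusted p = 0.0444, adjusted p = 0.2035 in limma). The P0 pairs had 0.67, 0.39 and 3.40, so this call leaned on replicate 3. At 1 W the root difference was -1.65 (unadjusted p = 0.0309, adjusted p = 0.09997 in limma). It was 3.99, 2.96 and 5.94 in P0 AN and 3.33, 2.56 and 2.53 in P0 EN, of which 1 AN array was above background, and 4.78, 4.44 and 3.50 in 1 W AN and 5.73, 6.43 and 5.50 in 1 W EN, where all EN arrays were.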

How the results depend on the processing

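The 57 genes followed through the alternatives were those named by size or for opposite calls and those the study names. Other list members were not followed. None of the 57 reversed a called direction, while the counts moved. Those named by size had pair differences that did not overlap, so leaving out a pair or changing the block could not reverse them. Within slide 1 the values of 24 of the 57 moved by at least the SD of their pair differences, and within slide 2 those of 22. With normexp background correction 961 probes were called (892 higher, 69 lower), with 152 root differences at P0 and 1098 at 1 W, 1777 changes in AN and 2651 in EN, and 641 higher probes that fell in EN. With only probes above background on all 12 arrays, the same counts were 933 (816 and 117), 208, 1002, 2270, 2852 and 626. With no filter on dim probes 540 were called lower and 651 at P0. With 1 probe per gene 137 were called lower and 2269 changed in AN.

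The replicate block kept most calls: 1529 probes were called with no replicate block, 1503 of them among the 1652, while adjusted calls went from 2093 to 728. They were 3773 with a random replicate block, 280 with all 24 arrays and the replicate block, and 3233 with array quality weights. They were 0 with no filter, with slide as a block and with scan day as a block, where limma gave 9463, 5980 and 7799 probes at an unadjusted p below 0.05. The cause was not tested.

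Leaving out 1 pair in turn gave 1431 to 1846 interactions called, 1243 to 1502 higher, 188 to 382 lower, 0 to 1673 adjusted, 322 to 625 root differences at P0, 1625 to 1942 at 1 W, 3049 to 4030 changes in AN, 4233 to 5465 in EN and 971 to 1247 higher probes that fell in EN. Among genes named by size, Herc6 and Cd177 lost their calls under several alternatives, and Adra1d, Uts2, Lemd1, Fcgbp and Ism1 fell under the 2-fold limit with normexp. The count of lower calls went from 221 to 69 with normexp (offset 50) and to 540 with no filter. That of higher calls went from 1431 to 892 and to 1624. Why these counts moved was not tested. Stage lies between the pairs, so anything that differed between the 2 collections cannot be told apart from age.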
